A study of Mus musculus with 8 samples.

Results

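Dividing cells of all lineages were described in single-cell RNA sequencing data from mouse kidney. They were chosen by the counts of 6 genes, *Mki67*, *Top2a*, *Cenpf*, *Kif11*, *Aspm* and *Knl1*, of which a cell needed at least 5 counts in sum with at least 3 of the 6 detected. Cells also had to pass limits of more than 300 genes, fewer than 20000 counts and less than 25% mitochondrial counts. Of 120281 barcodes 90855 passed the limits, and 1141 of those met the rule. The levels of the 6 genes in these cells are therefore a description, as are all ratios between dividing and other cells.

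The study asked how leukocytes of the kidney respond when the left renal pedicle is clamped and released (ischemia-reperfusion injury, IRI), with and without the SYK kinase inhibitor entospletinib. All mice were C57BL/6. The 7 conditions were untouched control kidneys (labelled CTRL) and kidneys taken 1, 7 or 14 days after IRI. Injured mice were given the vehicle DMSO (IRI_D1, IRI_D7 and IRI_D14) or entospletinib (E_IRI_D1, E_IRI_D7 and E_IRI_D14), injected before the injury. For mice taken at day 7 or 14 the injections were repeated, daily from day 1 to day 7 and every 2 days after that. Each condition was 1 pool of 3 mice, so no comparison of conditions has a replicate and no test could be made. The suspension was enriched for live leukocytes by flow sorting with a viability dye and scatter and does not represent the whole kidney. Cells of all pools were fixed, barcoded in the same plate and spread over 8 sublibraries, whose SD measures technical error. It is the spread of values from single sublibraries, counting error included, and not the error of the pooled value. The ages of the mice are not given in the sources used here.

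A dividing cell first copies its DNA (S phase) and then condenses and separates its chromosomes (G2 and M phases). *Mki67* encodes Ki-67, which coats mitotic chromosomes, and *Top2a* the topoisomerase that untangles sister chromatids. *Cenpf* and *Knl1* encode proteins of the kinetochore, the structure by which chromosomes attach to the spindle. *Kif11* encodes the motor that pushes the spindle poles apart, and *Aspm* a protein of the spindle poles. Kidney macrophages and T cells can renew themselves by division in the tissue, conventional dendritic cells divide after arriving as precursors, and neutrophils leave the bone marrow after their last division.

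In the GRCm38 annotation the genes lie at chr7:135689784-135716361 (*Mki67*, minus strand), chr11:98992943-99024189 (*Top2a*, minus), chr1:189640606-189688086 (*Cenpf*, minus), chr19:37376403-37421859 (*Kif11*, plus), chr1:139454772-139494091 (*Aspm*, plus) and chr2:119047119-119105501 (*Knl1*, plus). Many genes that are used late in the cell cycle carry a CCAAT box, the motif of the factor NF-Y, and a cell cycle genes homology region (CHR), the motif of the MuvB complexes. Both motifs were searched in the promoters of RefSeq on GRCm38.p6, from 250 bases before the start of the gene to 50 after it, the first by the letters CCAAT and its complement on the other strand, the second by the letters TTTGAA and their complement as well as by TTCGAA, which reads the same on both strands. Of the 6 promoters, 5 held a CCAAT box and all 6 held a CHR, and those of *Mki67* (chr7:135716330-135716629, minus strand), *Top2a* (chr11:99024140-99024439, minus) and *Aspm* (chr1:139454523-139454822, plus) are shown because they held 3 or more CCAAT boxes, with the motifs in capitals.
Mki67: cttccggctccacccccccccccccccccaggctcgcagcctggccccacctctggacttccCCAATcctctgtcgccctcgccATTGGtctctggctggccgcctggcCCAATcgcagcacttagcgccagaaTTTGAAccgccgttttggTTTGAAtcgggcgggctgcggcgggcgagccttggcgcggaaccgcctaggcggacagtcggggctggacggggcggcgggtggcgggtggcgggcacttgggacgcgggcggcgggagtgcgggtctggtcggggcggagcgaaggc
Top2a: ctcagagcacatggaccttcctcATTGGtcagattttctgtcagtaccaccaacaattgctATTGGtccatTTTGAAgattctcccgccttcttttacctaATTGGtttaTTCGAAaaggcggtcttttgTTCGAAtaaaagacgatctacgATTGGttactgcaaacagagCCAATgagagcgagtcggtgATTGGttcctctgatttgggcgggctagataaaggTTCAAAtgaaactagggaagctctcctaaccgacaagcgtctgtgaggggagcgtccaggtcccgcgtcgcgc
Aspm: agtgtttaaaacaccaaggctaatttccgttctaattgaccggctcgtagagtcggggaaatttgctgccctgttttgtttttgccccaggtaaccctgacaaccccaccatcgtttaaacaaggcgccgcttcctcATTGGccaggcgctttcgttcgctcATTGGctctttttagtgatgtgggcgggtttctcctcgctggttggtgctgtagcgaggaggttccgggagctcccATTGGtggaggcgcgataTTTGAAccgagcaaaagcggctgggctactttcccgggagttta
The *Top2a* promoter held 6 CCAAT boxes and 4 CHR motifs, that of *Mki67* 3 and 2, and that of *Aspm* 3 and 1. The *Knl1* promoter held 1 CHR and no CCAAT box in this window. Among all 27025 promoters in the set, 37.9% held a CCAAT box, 19.4% a CHR and 7.70% both. A match is a run of letters and does not show that a factor binds there.

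*Mki67* was the most frequent of the 6 genes in the dividing cells, detected in 99.1% of them, followed by *Top2a* in 93.8%, *Knl1* in 76.2%, *Kif11* in 72.7%, *Cenpf* in 57.1% and *Aspm* in 43.2%. Summed over the dividing cells, *Mki67* reached 1573 CPM (counts relative to all counts of the same cells), *Top2a* 867, *Knl1* 290, *Kif11* 283, *Cenpf* 263 and *Aspm* 147 (not corrected for gene length). All 6 genes were detected in 236 cells, 5 in 301, 4 in 310 and 3 in 294. The median dividing cell held 18 counts of the 6 genes and the highest held 93. Just inside the threshold were 47 cells with 5 counts, of which 78.7% also held a count of at least 1 of *Ccna2*, *Cdk1*, *Tpx2*, *Bub1*, *Kif15* and *Diaph3*, mitosis genes the rule did not use. Just outside it were 53 cells with 4 counts over at least 3 genes (64.2%), 221 cells with at least 5 counts over only 2 genes (74.7%) and 57 cells with at least 5 counts of only 1 gene (38.6%). Those 6 further genes were seen in 96.4% of all dividing cells and in 18.0% of the 6399 cells with 1 to 4 counts of the rule's genes.

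Lineages were taken from clusters of cells without any count of the 6 genes, built without cell cycle genes, and each dividing cell took the class most frequent among its 15 nearest such cells. For 96.8% of the dividing cells at least 9 of the 15 neighbours were of that class. Dividing cells were deeper than other cells, with a median of 5708 counts against 2271 over all cells. The rule asks for at least 5 counts and so itself favours deep cells. A doublet score called 31.5% of the dividing cells doublets but only 9.57% of the other cells, and the part of true doublets in that difference was not tested. The cells of entospletinib day 14 stood apart in depth, with a median of 933 counts per cell where the other conditions had 2055 to 2928. Among combinations of the 3 barcode wells, 8700 of 81508 occurred in more than 1 sublibrary, and 1 of 1140 among the dividing cells.

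Macrophage-like cells were the most frequent dividing cells, 523 of 1141 (45.8%), while they made up 29.4% of all cells. Type 2 conventional dendritic cell-like (cDC2-like) cells came next with 231 (20.2% of the dividing cells, 7.43% of all cells), followed by T cell-like cells with 159 (13.9% and 7.62%) and type 1 (cDC1-like) cells with 142 (12.4% and 2.33%). By class, the share of cells that were dividing was 6.69% in cDC1-like, 3.42% in cDC2-like, 2.30% in T cell-like and 1.95% in macrophage-like cells. It was 0.517% in B cell-like cells (26 cells), 0.230% in endothelial-like cells (19) and 0.161% in monocyte-like cells (22). These shares are pooled over conditions that differ in share and in make-up. Macrophage-like cells stood above T cell-like cells in vehicle day 1 (0.815% and 0%), vehicle day 7 (3.98% and 2.11%) and entospletinib day 7 (3.56% and 3.27%). They stood below them in the other conditions. Neutrophil-like cells were 15.3% of all cells and held 1 dividing cell. A further 9 dividing cells were proximal tubule-like, 2 were plasmacytoid dendritic cell-like and 7 fell in a cluster led by *Slc12a3*, *Slit2* and *Slc12a1* that was left unnamed.

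Markers of their own class were found in the dividing cells of the 4 large classes, at lower sums than in the other cells of the same class. These sums are pooled over all conditions, whose mix differs between dividing and other cells. Within conditions with at least 30 dividing cells of the class, the median log2 ratio of macrophage markers was -0.38. For cDC2, T cell and cDC1 markers it was -0.16, -0.23 and -0.55. Summed markers of macrophages (such as *C1qa*, *Adgre1* and *Csf1r*) stood at 3793 CPM in the dividing macrophage-like cells against 5891 CPM in the others, and 99.4% of those cells held counts of at least 2 of the 10 markers. The T cell markers (such as *Cd3e*, *Trac* and *Themis*) stood at 3271 CPM in dividing T cell-like cells against 4707 CPM, and the cDC2 markers (such as *Cd209a* and *Clec10a*) at 2283 CPM in dividing cDC2-like cells against 2825 CPM. Those of cDC1 (such as *Clec9a* and *Xcr1*) stood at 7079 CPM in dividing cDC1-like cells against 10230 CPM. Macrophage markers were also present in dividing T cell-like cells, at 1032 CPM against 576 CPM in the other T cell-like cells. In the dividing endothelial-like cells the endothelial markers reached 4710 CPM against 12967 in the other endothelial-like cells, those of cDC1 1220 against 199, and 68.4% of these 19 cells were called doublets. The 9 dividing proximal tubule-like cells had tubule markers at 2922 CPM against 10237 in the others and macrophage markers at 1998 against 485 CPM. The doublet share was 39.4% in dividing macrophage-like cells against 12.5% in the others, and 27.0% against 8.74% in T cell-like cells. It was 63.6% in the 22 dividing monocyte-like cells and 42.3% in the 26 B cell-like cells, against 16.5% in cDC2-like and 16.9% in cDC1-like cells.

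**Figure D1:**
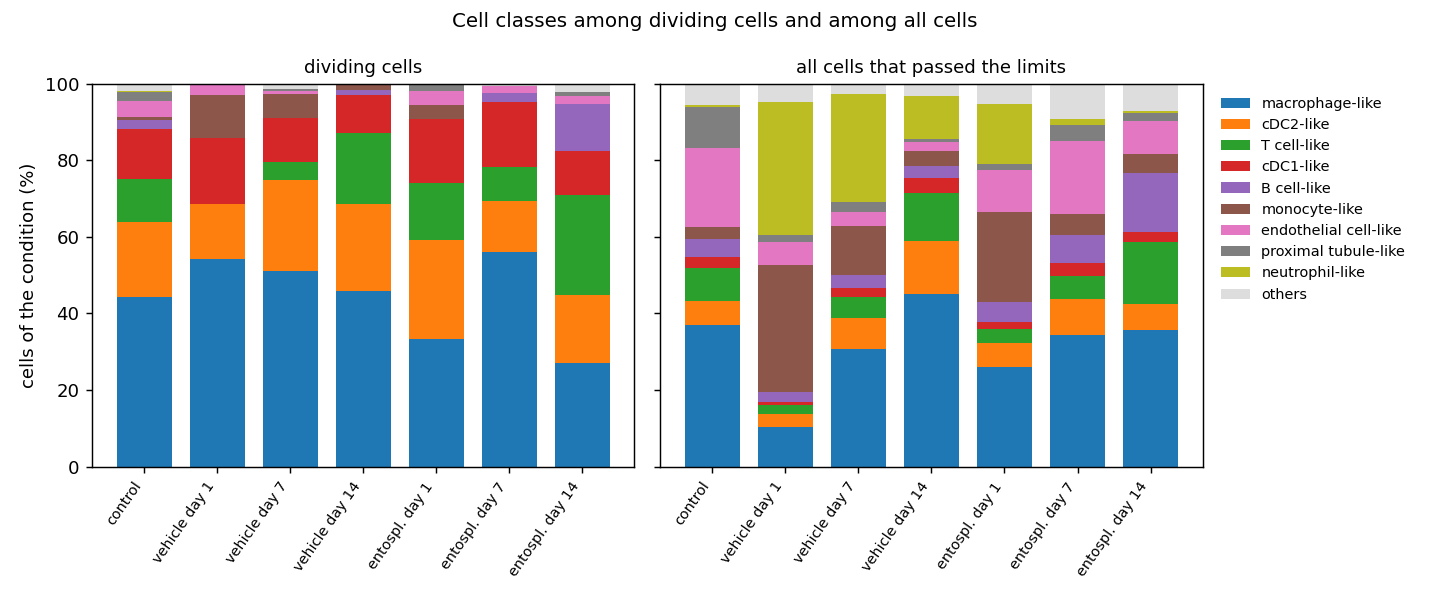
Classes of the dividing cells in each of the 7 conditions, as percent of the dividing cells of that condition. Macrophage-like cells are the largest class over all conditions together, with 523 of 1141 cells, followed by cDC2-like cells with 231.

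Over all cells, the dividing share was lowest 1 day after injury in vehicle. It was 1.97% in the control (221 of 11205 cells, exact 95% interval 1.72 to 2.25), 0.156% in vehicle at day 1 (35 of 22489, 0.108 to 0.216), 2.41% at day 7 (147 of 6110, 2.04 to 2.82) and 2.44% at day 14 (422 of 17261, 2.22 to 2.69). With entospletinib it was 0.385% at day 1 (54 of 14041, 0.289 to 0.502), 2.18% at day 7 (166 of 7605, 1.87 to 2.54) and 0.791% at day 14 (96 of 12144, 0.641 to 0.965). These intervals, like all others given here, cover counting error only and not the variation between mice. The log2 ratio of vehicle day 1 over control was -3.66 (SD 1.12 over 8 sublibraries, 8 of 8 in that direction), a 12.7-fold difference. The summed counts of the 6 genes gave a smaller one, with 31.5 CPM in vehicle day 1 and 180 CPM in the control (log2 ratio -2.52). That pool held 34.7% neutrophil-like and 33.3% monocyte-like cells, of which 0 of 7801 and 4 of 7494 were dividing. The 3 vehicle comparisons share the control pool.

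**Figure D2:**
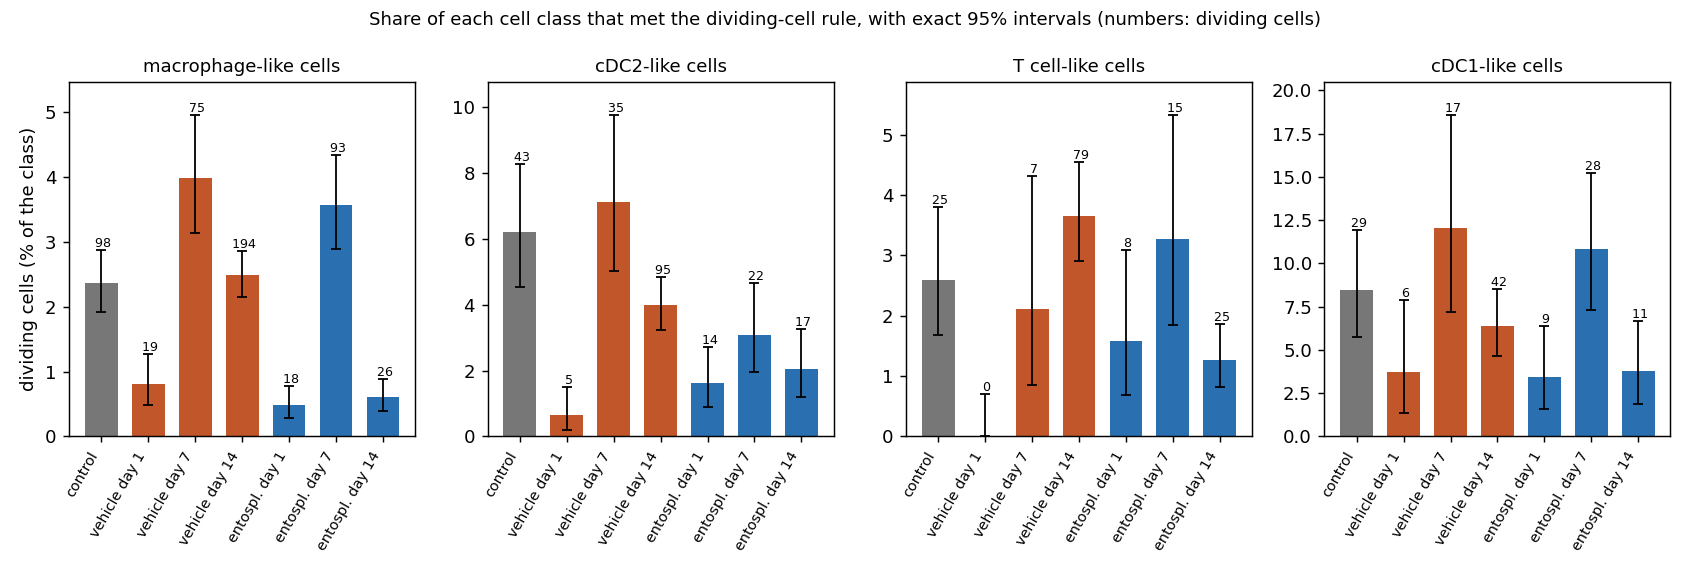
Percent of cells that were dividing in the macrophage-like, cDC2-like, T cell-like and cDC1-like classes, by condition, with exact 95% intervals. Every class has a lower point estimate in vehicle day 1 than in the control, and cDC1-like cells reach the highest share, 12.1% in vehicle day 7.

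Among macrophage-like cells, the phagocytes that are most numerous in the uninjured kidney, the dividing share was 2.36% in the control (98 of 4147), 0.815% in vehicle day 1 (19 of 2331), 3.98% in vehicle day 7 (75 of 1884) and 2.49% in vehicle day 14 (194 of 7791). In entospletinib it was 0.490% at day 1 (18 of 3671), 3.56% at day 7 (93 of 2611) and 0.602% at day 14 (26 of 4321). The vehicle shares were thus below the control at day 1 and above it at day 7. As log2 ratios to the control these were -1.54 (95% interval -2.33 to -0.82, 8 of 8 sublibraries) at day 1, 0.75 (0.30 to 1.20, 7 of 8) at day 7 and 0.08 at day 14. At day 1 the 6 further mitosis genes came to 61.5 CPM of the macrophage-like cells' counts, against 96.9 CPM in the control, a smaller difference. A list of 72 DNA replication genes was higher at day 1, at 1708 against 1284 CPM. The size of the day 7 difference depended on depth and threshold. With cells thinned to 2000 counts, which left out 396 and 1068 shallower cells, the share was 2.08% in vehicle day 7 (31 of 1488) and 2.01% in the control (62 of 3079, log2 ratio 0.05). At the same depth but with 2 counts over 2 genes it was 6.05% (90 cells) and 3.57% (110 cells), and thinned to 500 counts 1.49% and 1.04%. Entospletinib over vehicle gave a log2 ratio of -0.73 (95% interval -1.75 to 0.28, SD 1.84, 5 of 8 sublibraries) at day 1. At day 7 it was -0.16 (-0.61 to 0.30, SD 0.76), and both intervals span either direction. The direction at both days turned under some alternatives and held under others. At day 1 the shares were 0.272% against 0.172% after thinning to 500 counts, but 0.297% against 0.438% after thinning to 2000. At 2000 counts with 2 counts over 2 genes they were 1.58% against 1.02%. The day 1 ratio was lower than -0.73 when the 6 further mitosis genes chose the cells. At day 7 entospletinib was the higher with a log2 ratio of 0.04 after thinning to 500, and with 2.93% against 2.08% after thinning to 2000 (0.49). It was also the higher with 307 against 261 CPM of the 6 genes (0.24), and with 166 against 132 CPM of the 6 further mitosis genes. At 2000 counts with 2 counts over 2 genes it stayed the lower, with 5.18% against 6.05%.

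Different clusters supplied these macrophages. A first cluster (median 2944 counts per cell over all conditions) with *Agmo*, *Negr1*, *Abca9* and *Fcrls* among its leading genes held 70.3% of the control's macrophage-like cells and 80 of its 98 dividing ones. The same cluster held 44.9% of the macrophage-like cells of vehicle day 7 but 64.0% of the dividing ones there. In entospletinib day 7 it held 64.5% of the macrophage-like cells and 73.1% of the dividing ones. At day 1 a cluster led by *Ch25h*, *Mmp12*, *Plau* and *Cd36* held 89.9% of the macrophage-like cells in vehicle and 84.2% in entospletinib. In the control it held 14.1% of them. Within it 0.764% of cells were dividing in vehicle day 1 (16 of 2095) and 1.54% in the control (9 of 583), with overlapping intervals. Within the first cluster the shares were 4.69% (3 of 64) and 2.74% (80 of 2916). The other macrophage clusters held no dividing cells in vehicle day 1. In entospletinib day 14, 79.0% of the macrophage-like cells fell in a cluster of low depth (median 1014 counts per cell over all conditions). Its leading genes held *Slco2b1* and *Cx3cr1* but also *Agmo*, *Negr1* and *Abca9*, which it shares with the first cluster. It held 10 of the 26 dividing ones, and the first cluster held 8 of them with 8.96% of the cells.

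At day 14 the dividing share of macrophage-like cells was lower with entospletinib than with vehicle, by a log2 ratio of -2.05 (95% interval -2.70 to -1.45, SD 0.54, 8 of 8 sublibraries), and its size depended on how depth was treated. Of the macrophage-like cells of entospletinib day 14, 94.4% held fewer than 2000 counts, against 35.1% in vehicle. The pools also differed in clusters, and the cluster of low depth held 79.0% of these cells with entospletinib and 21.9% with vehicle. Within it the shares were 0.293% (10 of 3415) with entospletinib and 1.59% (27 of 1703) with vehicle. Within the first cluster above they were 2.07% (8 of 387) and 2.88% (99 of 3436), with overlapping intervals. In the cluster led by *Ch25h* and *Mmp12* they were 2.20% (4 of 182) and 4.90% (14 of 286). In a cluster led by *Cd83* and *Pmp22* they were 1.19% (4 of 337) and 2.28% (54 of 2366). Both were lower with entospletinib but rest on 4 dividing cells each in that pool, with overlapping intervals. Thinning to 500 counts with a threshold of 2 counts over 2 genes, which left out 431 macrophage-like cells of entospletinib day 14, gave 0.566% of macrophage-like cells (22 of 3890) against 1.32% (102 of 7746), a log2 ratio of -1.22. The summed counts of the 6 genes, which need no threshold per cell, came to 133 CPM of the macrophage-like cells' counts with entospletinib and 217 CPM with vehicle, a log2 ratio of -0.71. The 6 further mitosis genes, which the rule did not use, came to 75.1 CPM and 103 CPM. All 3 have the lower direction at a smaller size. Thinning to 2000 counts gave a log2 ratio of 1.70, but it kept 241 of 4321 cells of entospletinib day 14. Dividing cells there had a median of 2595 counts, against 838.5 in cells without a count of the 6 genes. The rule itself favours deep cells, so this gap is in part set by how the cells were chosen. That limit therefore keeps more of the cells that met the rule than of the others in this pool. The share after it (6.22%, 15 cells, against 1.92% in vehicle) does not compare the conditions. How much of the day 14 difference goes with the drug and how much with the depth of that pool cannot be told apart.

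**Figure D3:**
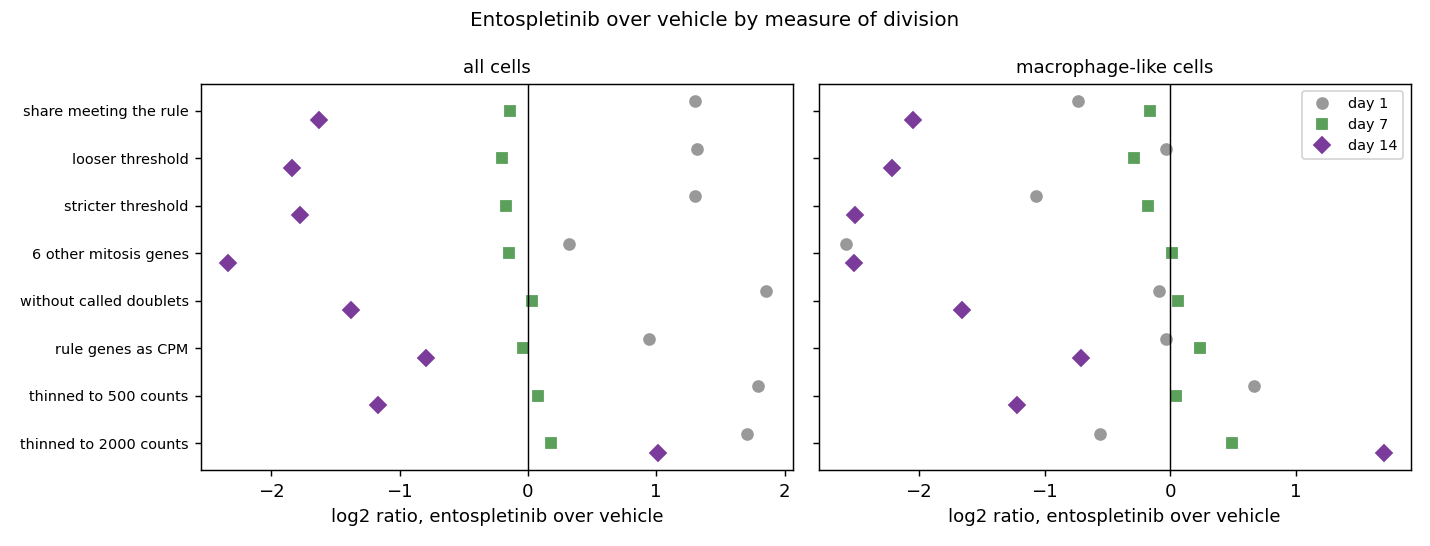
Log2 ratio of the dividing share, entospletinib over vehicle, at each day under different measures, for all cells and for macrophage-like cells. At day 14 the ratio for macrophage-like cells is -2.05 with the rule at full depth and 1.70 after thinning to 2000 counts, a depth that 241 of 4321 cells of entospletinib day 14 reached.

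In cDC2-like cells, which present antigen mainly to CD4+ T cells, 6.21% were dividing in the control (43 of 692), 0.643% in vehicle day 1 (5 of 778), 7.13% in vehicle day 7 (35 of 491) and 3.98% in vehicle day 14 (95 of 2388). Entospletinib gave 1.63% at day 1 (14 of 857), 3.09% at day 7 (22 of 711) and 2.04% at day 14 (17 of 833). The difference between vehicle day 1 and the control (log2 ratio -3.27, 95% interval -4.97 to -1.94, 8 of 8 sublibraries) had a larger point estimate than in macrophage-like cells, but the intervals overlap. At day 7 the share was 2.30-fold lower with entospletinib than with vehicle (log2 ratio -1.20, 95% interval -2.04 to -0.39), in 7 of 8 sublibraries. The SD over sublibraries was 1.46, for ratios of single sublibraries that each rest on few dividing cells. Thinned to 2000 counts the day 7 shares were 2.39% (15 of 627) and 3.33% (15 of 450). At that depth with 2 counts over 2 genes they were 4.47% (28 cells) and 7.33% (33 cells). Thinned to 500 counts they were 1.41% (10 of 711) and 3.46% (17 of 491). At day 14 thinning to 2000 turned the direction, to 6.03% against 2.95%, but left out 601 of the 833 cells with entospletinib, and thinning to 500 did not (9 of 818 cells against 47 of 2379).

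The cDC1-like cells, which cross-present antigen to CD8+ T cells, had the highest dividing share of the 4 large classes in every condition at full depth, where they were also the deepest of these classes by median count. The order does not hold under every depth and threshold. Thinned to 2000 counts it was turned in vehicle day 14 (4.82% of T cell-like and 3.17% of cDC1-like cells), entospletinib day 1 (3.33% and 0.862%) and entospletinib day 14 (17.2% and 7.75%). At the same depth with 2 counts over 2 genes it held in vehicle day 14 (7.18% and 7.68%). It was turned there in entospletinib day 1 (4.44% and 4.31%) and day 14 (21.2% and 11.6%). Thinned to 500 counts, also with 2 counts over 2 genes, cDC2-like cells stood above cDC1-like cells in the control (3.32% and 2.92%), vehicle day 7 (3.46% and 2.84%) and entospletinib day 1 (1.05% and 0.758%). At full depth the share of cDC1-like cells was 8.48% in the control (29 of 342), 3.70% in vehicle day 1 (6 of 162), 12.1% in vehicle day 7 (17 of 141), 6.35% in vehicle day 14 (42 of 661), 3.41% in entospletinib day 1 (9 of 264), 10.8% in day 7 (28 of 259) and 3.77% in day 14 (11 of 292). The log2 ratios of entospletinib over vehicle were -0.12, -0.16 and -0.75 at days 1, 7 and 14, and each interval included 0. These ratios moved with depth and threshold. At day 7 the shares were 5.02% with entospletinib and 2.84% with vehicle after thinning to 500 counts, at day 1 0.862% and 3.29% after thinning to 2000, and at day 14 7.75% and 3.17%, where 163 of the 292 cDC1-like cells of entospletinib were left out. At 2000 counts with 2 counts over 2 genes they were 4.31% and 4.61% at day 1 and 12.9% and 14.0% at day 7. At day 14 they were then 11.6% and 7.68%. These shares rest on 6 to 42 dividing cells per condition, and the differences were not tested.

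Of the T cell-like cells 2.59% were dividing in the control (25 of 965), none of 520 in vehicle day 1 (3 cells would be 0.577%, and the exact 95% limit is 0.707%), 2.11% in vehicle day 7 (7 of 331) and 3.66% in vehicle day 14 (79 of 2159). With entospletinib the share was 1.58% at day 1 (8 of 506), 3.27% at day 7 (15 of 459) and 1.26% at day 14 (25 of 1980). At day 14 thinning to 2000 counts turned the direction, to 17.2% with entospletinib against 4.82% with vehicle. That limit left out 1881 of the 1980 cells with entospletinib, and thinning to 500 counts did not turn it (0.843% against 1.77%). With 3 cells in place of none, vehicle day 1 was 4.49-fold lower than the control and entospletinib day 1 2.74-fold higher than vehicle day 1. The exact 95% limits, which cover the counting error of both pools, were log2 ratios of -1.76 and 0.81, which are smaller differences. Finer clustering placed 125 of the 159 cells in a T cell-like cluster and 1 in a natural killer cell-like cluster of 722 cells, while 33 fell in an unnamed cluster of which 97.6% were called doublets. The same clustering split the dendritic cells. Of 371 cells like *Ccr7* dendritic cells, the mature form that migrates to lymph nodes, 2 were dividing (0.539%), against 3.60% of 6285 cDC2-like cells.

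The remaining classes held few dividing cells. Among monocyte-like cells, recruited from blood after injury, 9 of 794 were dividing in vehicle day 7 (1.13%), 4 of 7494 in vehicle day 1 and none of 415 in entospletinib day 7. Of the B cell-like cells 0.980% were dividing in the control (5 of 510), 0.898% in vehicle day 14 (5 of 557), 0.709% in entospletinib day 7 (4 of 564) and 0.633% in entospletinib day 14 (12 of 1897), and none elsewhere. Thinning to 2000 counts turned the day 14 direction, to 6.98% with entospletinib (9 of 129) against 0.855% with vehicle (2 of 234). It left out 1768 of the 1897 cells with entospletinib. The control held 9 of the 19 dividing endothelial-like cells (0.387% of 2324 cells) and 5 of the 9 proximal tubule-like ones (0.423% of 1181 cells). No injured pool held more than 1 dividing proximal tubule-like cell, but the pools differed in size. As shares, 0.613% of these cells were dividing in vehicle day 7 (1 of 163) and 0.781% in vehicle day 14 (1 of 128). Of endothelial-like cells 0.457% were dividing in vehicle day 7 (1 of 219). The other injured pools had lower shares than the control in both classes.

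In dividing macrophage-like cells the 72 genes of the DNA replication list, active in S phase, summed to 4326 CPM in the control, 8362 in vehicle day 1, 4705 in vehicle day 7 and 5607 in vehicle day 14. With entospletinib they summed to 5123, 7154 and 6515 CPM at days 1, 7 and 14. The mitosis list stood at 12472 CPM in the control and at 10713, 10231 and 10742 CPM in vehicle, and at 9680, 13663 and 14080 CPM in entospletinib. The mitosis sum was the larger in every condition, and the replication sum was highest in vehicle day 1, in a pool with 19 dividing macrophage-like cells. Both lists hold genes of the phases that the rule selects, so these values are a description.

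Dividing macrophage-like cells were then compared with macrophage-like cells of the same condition that had no count of the 6 genes, in the 4 conditions with at least 30 dividing cells (control, vehicle day 7, vehicle day 14 and entospletinib day 7). A gene was called when its log2 ratio passed 1 in the same direction in all of these, and with 1 pool per condition this is a rule of size and not a test. For each ratio 0.5 counts were added to both groups, which makes ratios of genes with few counts smaller than those of the CPM printed beside them. Of 3650 genes 182 (4.99%) were higher and 4 (0.11%) lower. The number of lower genes was larger without called doublets and when 6 other mitosis genes chose the cells. It was smaller with the other cells weighted to the same depth. All 69 measured members of the mitosis list were higher (median log2 ratio 4.96), as were 32 of 35 of the DNA replication list (median 2.93), where the median of all genes was -0.09. A gene was measured at 50 CPM or more in either group, so members could enter only because they were high in dividing cells. The matrix held 109 genes of the mitosis list and 72 of the other. Counts of higher members, here and in the classes below, therefore do not speak for the whole lists. The rule chose cells in these phases, so the counts and ratios are a description of them. The highest were *Neil3*, a DNA glycosylase (7.98), *Esco2*, which locks cohesin on sister chromatids (7.94), *Ccna2*, cyclin A (7.93), and *E2f7*, a repressor of replication genes (7.85). At the low end stood *Cenpa*, the histone that marks centromeres (1.89), *Nasp*, a histone chaperone (1.28), and *Casp8ap2* (1.00). Other macrophage-like cells held only 0 to 3 counts of *Ccna2* in 3 of the conditions and 1 to 3 of *Esco2* in all 4, so the size of the highest ratios is loosely bounded (*Esco2* in the control, 95% interval 6.66 to 14.6). *Ccna2* in vehicle day 7 had 35.5 CPM in dividing cells and no counts in the others, 69.2-fold higher with 3 counts in place of none.

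Of 14 cyclins and brakes measured, genes that drive or hold back entry into the cycle, only *Rbl1*, a relative of the retinoblastoma protein, passed the limit. It stood at 133, 118, 146 and 171 CPM in dividing cells of the control, vehicle day 7, vehicle day 14 and entospletinib day 7, against 34.8, 27.8, 32.2 and 40.9 CPM in other cells, with no overlap between them. *Ccnd3*, a D-type cyclin of early G1 phase, had 454, 105, 165 and 142 CPM in dividing and 877, 225, 404 and 507 CPM in other cells, lower in each condition (median log2 ratio -1.18) without passing 1 in all. *Mxd4*, which opposes MYC, had 53.3, 37.2, 51.2 and 32.4 CPM in dividing and 93.0, 90.6, 95.6 and 84.1 CPM in other cells (median -1.07), and the median was -0.63 for *Ccnd2*. *Cdkn1a*, the inhibitor p21, had 65.8, 71.1, 87.7 and 63.1 CPM against 35.1, 58.8, 70.3 and 41.7 CPM (median 0.47). *Csf1r*, the receptor through which macrophages receive their growth signal, had 476, 440, 464 and 587 CPM against 656, 593, 681 and 731 CPM (median -0.44), and none of 7 growth factor receptors was called.

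None of 14 resident macrophage genes was called in the dividing macrophage-like cells (median -0.27), from *Cx3cr1*, the fractalkine receptor (0.11), to *Tmcc3*, *Agmo* and *Slco2b1* (each -0.90). *Cx3cr1* had 730, 729, 821 and 1171 CPM in dividing and 689, 668, 958 and 1075 CPM in other cells of the control, vehicle day 7, vehicle day 14 and entospletinib day 7. *Agmo*, an ether lipid oxygenase, had 144, 110, 85.9 and 119 CPM in dividing and 346, 127, 134 and 269 CPM in other cells. None of 19 injury macrophage genes was called either (median -0.40). *Fn1*, fibronectin, had 281 CPM in dividing and 165 CPM in other cells of vehicle day 7, but 111 and 245 CPM at day 14. *Thbs1*, thrombospondin 1, had 126 against 206 CPM at vehicle day 7 and 112 against 320 CPM at day 14. The 7 class II antigen presentation genes (median -0.27) and 12 chemokines and cytokines (median -0.29) had no called member, and *Il1b* had 484, 797, 878 and 422 CPM in dividing and 723, 1043, 1244 and 693 CPM in other cells. These medians lay below that of all genes (-0.09) by less than the limit.

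**Figure D4:**
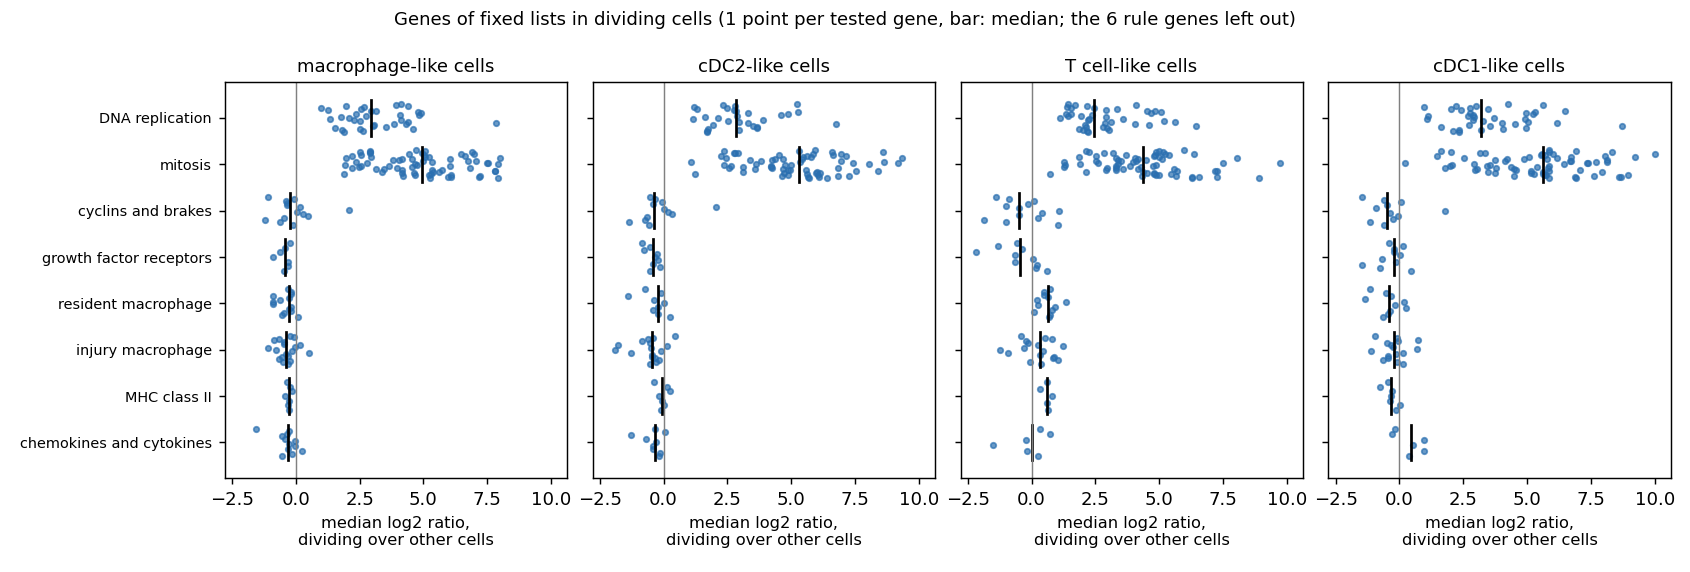
Log2 ratio of dividing over other cells for each tested gene of 8 lists (points, median over conditions; bars, median of the list) in macrophage-like, cDC2-like, T cell-like and cDC1-like cells. The mitosis list (4.96, 5.31, 4.35 and 5.63) and the DNA replication list (2.93, 2.83, 2.45 and 3.18) have higher medians than the other 6 lists shown, and the 6 genes of the rule are left out.

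Outside the cell cycle lists, 75 genes were higher in dividing macrophage-like cells. The 5 with the highest median were *Prr11* (log2 ratios 6.30, 5.79, 6.81 and 6.25 in the control, vehicle day 7, vehicle day 14 and entospletinib day 7), the long noncoding RNA *Lockd* downstream of *Cdkn1b* (6.45, 5.91, 6.15 and 6.29), the linker histone *H1f5* (5.53, 5.01, 6.02 and 5.33), *Efcab11* (4.77, 5.40, 5.27 and 4.97) and *Sdk1* (5.69, 4.81, 4.93 and 4.75). Of these 75 genes, 54 were also higher in dividing cDC2-like cells, 45 in T cell-like and 53 in cDC1-like cells, where 5.35%, 6.13% and 8.6% of all tested genes were higher. Of the 63 with a promoter in RefSeq 63.5% held a CCAAT box, 46.0% a CHR and 31.7% both. The genes measured in macrophage-like cells, 2939 with a promoter, held them in 36.6%, 13.7% and 6.23%. The mitosis list, with 88 promoters, held them in 68.2%, 62.5% and 50.0%. The DNA replication list, with 56, held CCAAT in 64.3% but CHR in 19.6% and both in 14.3%.

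The 4 genes lower in dividing macrophage-like cells were *Slfn5*, *F13a1*, *Ms4a14* and *Ms4a7*. *Slfn5*, of the interferon-inducible schlafen family, had 53.3, 30.7, 64.9 and 37.8 CPM in dividing and 196, 155, 193 and 196 CPM in other cells of the control, vehicle day 7, vehicle day 14 and entospletinib day 7, with no overlap. *F13a1*, the subunit of coagulation factor XIII made by monocytes and macrophages, had 3.13, 22.6, 22.8 and 14.4 CPM in dividing and 17.1, 120, 57.4 and 52.1 CPM in other cells (log2 ratios -2.13, -2.35, -1.30 and -1.77). The control value rests on 2 counts (95% interval -5.51 to -0.58). *Ms4a7*, of a family of membrane proteins of macrophages, had 119, 88.9, 190 and 132 CPM in dividing and 307, 247, 417 and 380 CPM in other cells. Its log2 ratios were -1.36, -1.47, -1.13 and -1.52, and it lost its call when the other cells were weighted to the same depth and when 6 other mitosis genes chose the cells. With that weighting only 2 genes were called as lower, so another of these 4 lost its call there too. *Ms4a14* had log2 ratios of -1.18, -1.36, -1.88 and -1.51 and lost its call without called doublets.

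Dividing cDC2-like cells, compared in the control, vehicle day 7 and vehicle day 14, had 184 of 3441 genes higher (5.35%) and 13 lower (0.378%). More genes were called as lower with the other cells weighted to the same depth, and also without called doublets. Of the mitosis list 65 of 66 were higher (median 5.31, or 5.28 with genes at 0 set to 3 counts) and of the DNA replication list 29 of 29 (2.83). Besides these lists the highest were *Prr11*, *Lockd*, *H1f5*, *Depdc1b* and *Bard1*, the partner of BRCA1. *H1f5* had 150, 201 and 167 CPM in dividing and 8.24, 6.68 and 3.92 CPM in other cDC2-like cells, and *Bard1* 104, 118 and 119 against 8.24, 3.89 and 3.45 CPM. The lowest were *Cyp7b1*, an oxysterol hydroxylase, *Mreg*, melanoregulin, *Marchf3*, *Cd36*, a scavenger receptor, and *Atxn1*. *Cyp7b1* had 3.48, 3.79 and 10.5 CPM in dividing and 69.3, 61.2 and 63.0 CPM in other cells, on 1, 1 and 6 counts (log2 ratios -3.73, -3.43 and -2.47). *Mreg* had 10.5, 22.7 and 70.2 CPM in dividing and 120, 147 and 181 CPM in other cells (-3.30, -2.58 and -1.35). *Cd36* had no counts in dividing cells of vehicle day 7 against 56.2 CPM, 4.94-fold lower with 3 counts in place of none, and log2 ratios of -1.75 and -1.79 in the control and vehicle day 14. The other cDC2-like cells also include *Ccr7* dendritic cells, whose 8 markers summed to 388 CPM in dividing and 816 CPM in other cells. Of 5 *Ccr7* dendritic cell markers measured 2 were lower, *Mreg* and *Ccl22*, a chemokine of mature dendritic cells (median of the list -1.32). *Ccr7* itself had 6.97, 3.79 and 72.0 CPM in dividing and 148, 141 and 117 CPM in other cells and was not called, since its log2 ratio in vehicle day 14 was -0.68. None of the 7 class II genes (median -0.05) nor of 7 cDC2 markers (median -0.16) was called, and *Ccnd2* had -1.36.

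T cell-like cells could be compared only in vehicle day 14 (79 dividing cells), so their calls rest on 1 pool, and 235 of 3835 genes were higher (6.13%) and 166 lower (4.33%). The mitosis list had 66 of 67 higher (median 4.35) and DNA replication 39 of 39 (2.45). Outside them the highest were *Prr11* (6.57), *H1f5* (5.58), *Mastl*, the Greatwall kinase (5.48), *Depdc1b* (5.34) and *Rad54b* (5.17). The T cell-like class also holds natural killer cells, whose markers stood at 109 CPM in dividing and 608 CPM in other T cell-like cells over all conditions. The lowest genes were *Klra8*, a natural killer cell receptor (no counts against 73.5 CPM, 13.7-fold lower with 3 counts in place of none), *Styk1* (-3.70, on 2 counts), ENSMUSG00000121360 (-3.68, on 3 counts), *Pard3* (-3.41, on 3 counts) and *Satb1*, a chromatin organiser of T cells (-2.74, 37.5 against 256 CPM). Of 12 genes of T cell subsets 3 were lower, among them *Tcf7*, a factor of naive and memory cells (-1.69, 53.6 against 176 CPM), and *Icos*, a costimulatory receptor (-1.27, 80.4 against 196 CPM). *Il7r*, the receptor for the survival factor interleukin 7, was lower too (-2.17, 60.8 against 278 CPM). Among the cyclins *Ccnd3* was lower (-1.85, 195 against 707 CPM) and *Ccnd1* higher (1.03, 57.2 against 28.3 CPM). The lineage genes *Cd4* (-0.90), *Cd8a* (0.26), *Ctla4* (0.37) and *Ikzf2* (0.12) did not pass the limit. All 12 resident macrophage genes measured in these cells (median 0.66) and all 7 macrophage markers (median 0.62) were above 0, and 35.4% of the 79 dividing cells were called doublets against 14.5% of the others. Their part in these calls was not tested. Without called doublets 356 genes were higher and 401 lower.

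The 42 dividing cDC1-like cells of vehicle day 14 had 308 of 3583 genes higher (8.6%) and 128 lower (3.57%). Mitosis genes were higher in 68 of 69 (median 5.63, or 5.53 with genes at 0 set to 3 counts) and replication genes in 36 of 37 (3.18). *Mastl* had 99.7 CPM in dividing cells and no counts in the others, 75.7-fold higher with 3 counts in place of none. *Rad54b* (5.45), *Efcab11* (5.39), *H1f5* (5.36) and *Lockd* (4.87) followed. The lowest were *Ank1*, ankyrin 1 (-3.10, on 3 counts), *Adam23* (-2.54), *Fndc7* (-2.43, on 3 counts), *Gm35853* (-2.35) and *Tnfrsf21*, death receptor 6 (-2.30). Of 8 cDC1 markers 2 were lower, *Cadm1*, an adhesion molecule (-1.34, 489 against 1241 CPM), and *Itgae*, CD103 (-1.12, 190 against 415 CPM), and the median of the list was -0.55. *Mxd4* had -1.48 and *Rbl1* 1.80, the same direction as in macrophage-like cells.

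Dividing macrophage-like cells of entospletinib and vehicle were compared at day 7, the only day with at least 30 in both (93 and 75 cells), relative to the median gene, whose log2 ratio was 0.34. Of 2026 genes 14 (0.691%) were higher and 58 (2.86%) lower by a log2 ratio past 1. The genes given here were named after their values were seen, for their size or as members of the lists. Called doublets made up 35.5% of these dividing cells with entospletinib and 50.7% with vehicle. A macrophage cluster led by *Cd83* and *Pmp22* held 6 of the 93 and 20 of the 75. The neutrophil marker *Il1r2* had 52.3 against 128 CPM (-1.61, and -1.65 in macrophage-like cells that were not dividing), and of the monocyte markers 2 were measured, *Fn1* and *Ccr2* (0.11). The part of these in the ratios was not tested. *Ptgs2*, cyclooxygenase 2, had 9.01 CPM with entospletinib and 137 CPM with vehicle (5 against 85 counts, log2 ratio -4.14, 95% interval -5.93 to -2.99), and -2.21 in macrophage-like cells that were not dividing. The next lowest were the small noncoding RNAs *Scarna2* (-3.09, and -2.48 in the others) and *Rpph1* (-3.05 and -2.60), and *Ccnb1ip1* (-2.87 and -2.99). *Fn1* had 50.5 against 281 CPM (-2.79, 95% interval -3.45 to -2.23) and -0.93 in the others, and *Thbs1* -2.72 and -2.13. *Tnfaip3*, a brake on NF-kB signalling, had -1.83 (-0.86 in the others), *Kdm6b*, a histone demethylase, -1.95 (-1.05) and *Il1b* -1.25. The most abundant was *Gphn*, gephyrin, at 7395 against 21460 CPM (-1.87), with -1.96 in the others.

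Of the higher genes *Cxcl10*, a chemokine induced by interferon, had 130 CPM with entospletinib and 21.0 CPM with vehicle (72 against 13 counts, log2 ratio 2.25) but -0.45 in cells that were not dividing. *Ccl2*, the ligand of CCR2, had 117 against 37.2 CPM (1.30, and -0.63 in the others). *Ccnd1*, cyclin D1, had 207 against 58.2 CPM (1.48, and 0.86 in the others) and *Fkbp5*, a glucocorticoid-induced gene, 229 against 80.8 CPM (1.16, and 1.34). Of the other glucocorticoid response genes measured, *Dusp1* was lower (73.9 against 120 CPM, -1.02) and *Zbtb16* was not called (0.35). Whether the ratios differ between dividing and other cells was not tested. No gene of the DNA replication and mitosis lists was called, with a median of 0.23 over 22 DNA replication genes, of which 20 were above 0, and of 0.10 over 44 mitosis genes. Of 7 cyclins and brakes *Ccnd1* was higher and *Btg2*, an antiproliferative factor, lower (-1.59). Of 17 injury macrophage genes 3 were lower (median -0.19), of 7 chemokines and cytokines 2 were lower and 2 higher, and of 14 resident genes and 6 class II genes none was called (medians 0.00 and -0.23).

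**Figure D5:**
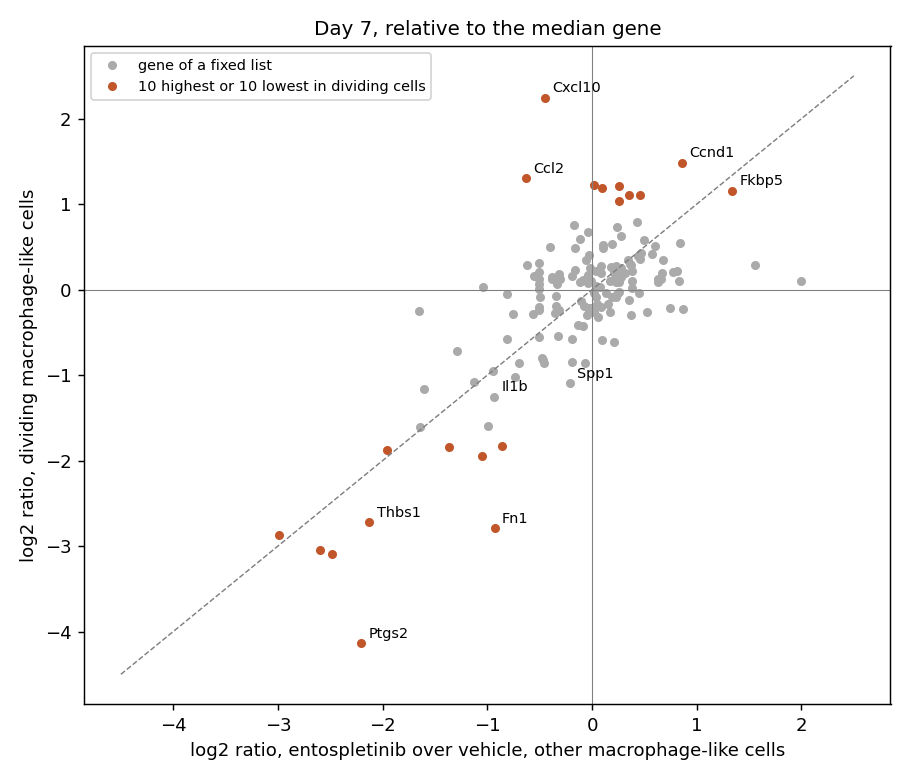
Log2 ratio of entospletinib over vehicle at day 7 in dividing macrophage-like cells against the same ratio in macrophage-like cells that were not dividing, 1 point per gene of the lists or among the 10 highest and 10 lowest, with the dashed line marking equal ratios. *Ptgs2* (-4.14 and -2.21) and *Thbs1* (-2.72 and -2.13) are low in both, while *Cxcl10* (2.25 and -0.45) and *Ccl2* (1.30 and -0.63) are on opposite sides of 0.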

How the data were processed

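The authors counted transcripts per cell and gene with the Parse Biosciences pipeline (reads aligned to mm10, annotation release not given in the sources used here) and deposited whole-number counts with no normalization. Each of the 8 GEO samples held cells of every condition, so the condition of a cell came from the deposited cell table, and 0 columns were left unmapped. The dividing cells and the gene lists were chosen with earlier results of these data known.

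Cells without any count of the 6 genes (83037) were clustered on 4000 genes without cell cycle genes (counts scaled to 100000, 40 principal components, 15 neighbours, Leiden resolution 1, 19 clusters) and the other 7818 were placed by their 15 nearest neighbours. A cluster was named from at least 3 markers at 2-fold or more in at least 10% of its cells, a rule set after the clusters were seen. Called doublets (score above 0.5) were kept and removed in an alternative. Shares have exact Clopper-Pearson intervals and count ratios exact Poisson intervals at 95%, and floors use 3 counts. A fold against a floor leaves out the counting error of the other group. For ratios per sublibrary and for gene ratios 0.5 was added to the counts. Genes were compared as CPM computed from the counts, at 50 CPM or more in 1 of the groups (100 CPM for entospletinib against vehicle).

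Named genes were the 6 rule genes, the highest and lowest members of each list, and the 5 highest and 5 lowest called genes outside the cell cycle lists in classes with at least 100 dividing cells. 3 alternatives (rule genes as CPM, thinning to 500 counts, and other mitosis genes for the expression ratios) were added after the data were seen. The ratio functions were tested on simulated data. Python 3.11.15, numpy 2.4.6, scipy 1.17.1, pandas 2.3.3, scanpy 1.11.5, scikit-learn 1.9.0, igraph 0.11.9, leidenalg 0.10.2 and matplotlib 3.10.9 were used.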

Additional observations from a re-analysis of the deposited data

Results flagged for a closer look

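Barcodes with 20000 or more counts were outside the limits of the rule. In vehicle day 14, 25 of 111 of them (22.5%) met the threshold on the 6 genes, against 29 of 377 (7.69%) in the control. Vehicle day 7 was similarly high with 7 of 36 (19.4%), vehicle day 1 had 4.03% and the entospletinib pools had 2 of 181, 8 of 155 and 1 of 90 at days 1, 7 and 14. They are deeper than any cell described above, and doublets among them were not counted. The difference was not tested.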

How the results depend on the processing

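No paired analysis was possible because each GEO sample holds cells of all conditions and each condition is 1 pool. Leaving out each sublibrary in turn turned the direction of entospletinib over vehicle at day 7 (-0.25 to 0.023 for all cells, -0.31 to 0.027 for macrophage-like cells) and of no other ratio for these groups, while the other classes were not run. Entospletinib against vehicle at day 14 gave a log2 ratio of -1.63 for all cells, -2.34 with 6 other mitosis genes, -0.79 with the rule genes as CPM and 1.02 when thinned to 2000 counts. For macrophage-like cells it was -2.05, and -1.33 with more than 500 genes, -0.71 as CPM, -1.22 thinned to 500 counts and 1.70 thinned to 2000. Thinning to 2000 left out 87.7% of the day 14 entospletinib cells and so selected its deeper cells, which the rule also favours, while the cause of the other shifts was not tested. At day 1 the macrophage-like ratio was -2.58 with 6 other mitosis genes and 0.67 thinned to 500. Vehicle over control for macrophage-like cells was 0.049 at day 7 thinned to 2000, -0.31 at day 14 under both the stricter threshold and the 6 other genes, and -2.60 at day 1 thinned to 500, and -2.52 at day 1 as CPM for all cells. Without doublets macrophage-like cells were 40.5% of the dividing cells, cDC2-like 24.7% and cDC1-like 15.1%, macrophage-like cells were 49.7% with ribosomal protein genes under 1.5%, and T cell-like cells 10.96% at resolution 2. The 4 genes lower in dividing macrophage-like cells became 2 with other cells weighted by depth, 14 without doublets and 7 with 6 other mitosis genes. The 13 lower in dividing cDC2-like cells became 27 with that weighting and 21 without doublets, and in dividing T cell-like cells 235 higher and 166 lower became 356 and 401 without doublets.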
